A study of Homo sapiens with 6 samples.

Results

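The AP-1 transcription factors were examined as 10 genes, FOS, FOSB, FOSL1, FOSL2, JUN, JUNB, JUND, ATF3, MAFF and BATF3, chosen by name as the rows of the deposited count table with those symbols. All 10 were found among 22681 genes, and all 10 passed the filter on low counts that left 14356 genes for testing. The cells were TPC-1-Len, a lenvatinib-resistant derivative of the human papillary thyroid carcinoma line TPC-1, grown throughout in 10 µM lenvatinib, a multikinase inhibitor whose targets include the VEGF receptors and RET. They carried a short hairpin RNA against KRT15 (labelled sh-KRT15 and written shKRT15, 3 cultures) or a non-targeting hairpin (labelled sh-NC and written shNC, 3 cultures), delivered by liposomal transfection. The study asked which genes depend on the keratin KRT15 in resistant cells. Every culture was resistant and drug-exposed, the labels describe 1 hairpin per group in 1 cell line, and the time between transfection and harvest is not given in the sources used here.

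AP-1 is a family of dimers built from basic leucine zipper (bZIP) proteins. JUN proteins can pair with themselves, with FOS proteins or with relatives such as ATF3, whereas FOS proteins bind DNA only with a partner. The dimers recognise the sequence TGACTCA, called TRE, and the related TGACGTCA, called CRE, and they couple growth factor, cytokine and stress kinases to genes of proliferation, inflammation and matrix breakdown. In thyroid carcinoma cells, RET and MAP kinase signalling are well-known inputs to the family.

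Libraries held 39868231 to 41343780 counted reads in shKRT15 and 36286059 to 36808695 in shNC, and no library pair agreed within sampling noise. The targeted gene KRT15 fell by 23.4% in shKRT15 (24.7 ± 0.365 CPM in shKRT15 and 32.3 ± 3.77 CPM in shNC, SD, n = 3; edgeR adjusted p = 0.00465). Of the thyroid markers, PAX8 was high (410 CPM in shKRT15 and 375 CPM in shNC), while NKX2-1 and TSHR each had 0 reads in shKRT15 and 1 read in shNC. Of the epithelial markers, EPCAM had 6 reads in shKRT15 and 2 in shNC, CDH1 had 1 read in shKRT15 and 4 in shNC, and KRT7, KRT8 and KRT18 carried the label. The summed epithelial level was 248 to 259 CPM in shKRT15 and 147 to 161 CPM in shNC, and of its 3 tested genes KRT18 was called higher (0.89, edgeR adjusted p = 1.37e-08). The summed level of 6 leukocyte markers was 158 to 186 CPM in shKRT15 and 208 to 209 CPM in shNC, with 3 of 4 tested genes lower. Most of it came from CD68 (59.6 CPM in shKRT15 and 87.9 CPM in shNC) and LAPTM5. LAPTM5 did not pass (110 CPM in shKRT15 and 116 CPM in shNC, edgeR adjusted p = 0.391). The defining marker PTPRC had 0 reads in shKRT15 and 43 in shNC. For 5 fibroblast markers the sums were 8.31 to 9.72 CPM in shKRT15 and 21.7 to 26.2 CPM in shNC, with 3 of 4 tested genes lower and 1 higher. The endothelial sums overlapped, at 1.12 to 2.10 CPM in shKRT15 and 0.814 to 1.86 CPM in shNC. The part of these markers in the AP-1 results was not tested, and in bulk RNA fewer cells of a type and less RNA per cell cannot be told apart.

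Promoters are shown for the 4 members whose transcripts differed between the hairpins, JUN, JUNB, ATF3 and MAFF, and for JUND, the JUN subfamily member that did not pass the test. The sequences come from RefSeq on GRCh38.p14, a patch release of the build named in the submitters' processing notes. Each runs from 250 bases before the annotated start site to 50 bases after it, and capitals mark every match to the motifs searched. The table held 10 such windows for 8 members, all but FOSL1 and BATF3, and the windows shown for ATF3 and MAFF are 1 of a pair each.
JUN, chr1:58783998-58784297, minus strand: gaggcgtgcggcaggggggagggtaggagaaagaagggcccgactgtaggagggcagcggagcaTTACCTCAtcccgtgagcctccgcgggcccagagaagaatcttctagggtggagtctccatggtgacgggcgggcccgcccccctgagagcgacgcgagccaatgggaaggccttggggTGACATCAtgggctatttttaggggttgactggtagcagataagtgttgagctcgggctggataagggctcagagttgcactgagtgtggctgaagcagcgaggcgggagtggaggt
JUNB, chr19:12791236-12791535, plus strand: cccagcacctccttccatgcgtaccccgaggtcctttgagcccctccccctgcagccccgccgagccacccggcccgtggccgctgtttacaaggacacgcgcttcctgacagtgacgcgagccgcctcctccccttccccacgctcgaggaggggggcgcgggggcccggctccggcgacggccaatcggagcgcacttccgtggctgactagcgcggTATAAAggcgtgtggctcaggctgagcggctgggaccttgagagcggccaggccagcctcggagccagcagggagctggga
JUND, chr19:18281573-18281872, minus strand: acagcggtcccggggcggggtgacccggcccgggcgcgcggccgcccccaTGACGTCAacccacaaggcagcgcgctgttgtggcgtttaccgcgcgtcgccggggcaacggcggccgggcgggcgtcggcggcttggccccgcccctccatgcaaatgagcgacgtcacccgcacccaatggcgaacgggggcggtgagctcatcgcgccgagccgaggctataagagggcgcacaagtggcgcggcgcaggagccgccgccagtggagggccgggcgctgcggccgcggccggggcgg
ATF3, chr1:212565157-212565456, plus strand: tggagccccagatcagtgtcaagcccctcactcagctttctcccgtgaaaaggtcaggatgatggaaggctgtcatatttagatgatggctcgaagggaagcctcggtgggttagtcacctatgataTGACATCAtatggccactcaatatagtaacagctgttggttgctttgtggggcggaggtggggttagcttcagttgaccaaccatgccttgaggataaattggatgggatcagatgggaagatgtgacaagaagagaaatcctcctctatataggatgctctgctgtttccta
MAFF, chr22:38201744-38202043, plus strand: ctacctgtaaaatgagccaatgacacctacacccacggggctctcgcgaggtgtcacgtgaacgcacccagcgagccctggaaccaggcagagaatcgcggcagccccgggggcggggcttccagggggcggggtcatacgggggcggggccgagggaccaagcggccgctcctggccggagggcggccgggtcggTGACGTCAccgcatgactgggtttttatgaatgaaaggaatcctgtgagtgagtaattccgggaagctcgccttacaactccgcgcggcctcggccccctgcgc
The motifs were TGACTCA, TGACGTCA, the variants TGACATCA and TTACCTCA, which are the forms known from the JUN promoter itself, TATAAA, and the CArG box bound by serum response factor, all read on both strands. None of the motifs spelled out contains another, though a CArG box can contain TATAAA. The JUN window held TGACATCA starting 67 bases and TTACCTCA starting 186 bases before the start site. Before the start site, the ATF3 window shown held TGACATCA at 123 bases and the MAFF window shown held TGACGTCA at 54 bases. The JUND window held TGACGTCA at 200 bases before the start. The other ATF3 window held only TATAAA, at 230 bases before its start, and the other MAFF window held none of the motifs. Counts per gene do not show which start site was used. FOSL2, not shown, held TGACTCA just after its start. JUNB, FOS and FOSB held TATAAA at 31, 33 and 30 bases before the start and no exact match to the AP-1 type motifs. Only exact letters were searched, so a related site that differs in any letter was not counted. At least 1 of the 4 AP-1 type motifs was present in 5 of the 10 windows and in 9.788% of all 35116 windows in the table. The JUN window is among the 5 by construction, since TGACATCA and TTACCTCA were searched as its own known sites, so the counts are a description only. By motif, that background was 4.949% for TGACTCA, 1.848% for TGACGTCA, 2.614% for TGACATCA and 0.715% for TTACCTCA. The TATAAA motif was in 11.53% and the CArG box in 1.293% of windows, and no member window held a CArG box. Sequence outside the windows was not searched, so a CArG box farther upstream would be missed. A match describes letters and not occupancy.

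Among the 10 members, 4 fell in shKRT15 (JUN, JUNB, ATF3 and MAFF), none rose and 6 did not pass the test (FOS, FOSB, FOSL1, FOSL2, JUND and BATF3). The test was edgeR's quasi-likelihood test over all genes with Benjamini-Hochberg adjustment and a threshold of 0.05. Expression differed widely between the hairpins, with 23% of all tested genes called lower, 22.1% called higher and 45% called in either direction, so 4 called of 10 was close to the background. At an unadjusted p under 0.05, 1 member was higher (FOS), and neither DESeq2 nor limma-voom called any member higher (0 each). The median log2 fold change, shKRT15 over shNC, was −0.36 over the members and −0.0013 over all tested genes. Groups did not overlap in normalised level for 7 of 10 members, against 54% of all tested genes. With total-count scaling 3 members, FOS, FOSL1 and JUND, were called higher, beside 26.1% of all tested genes. The labels call the cultures biological replicates but do not say that they were transfected separately, and each p-value reflects spread among these 6 libraries alone, which may be technical.

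**Figure D1:**
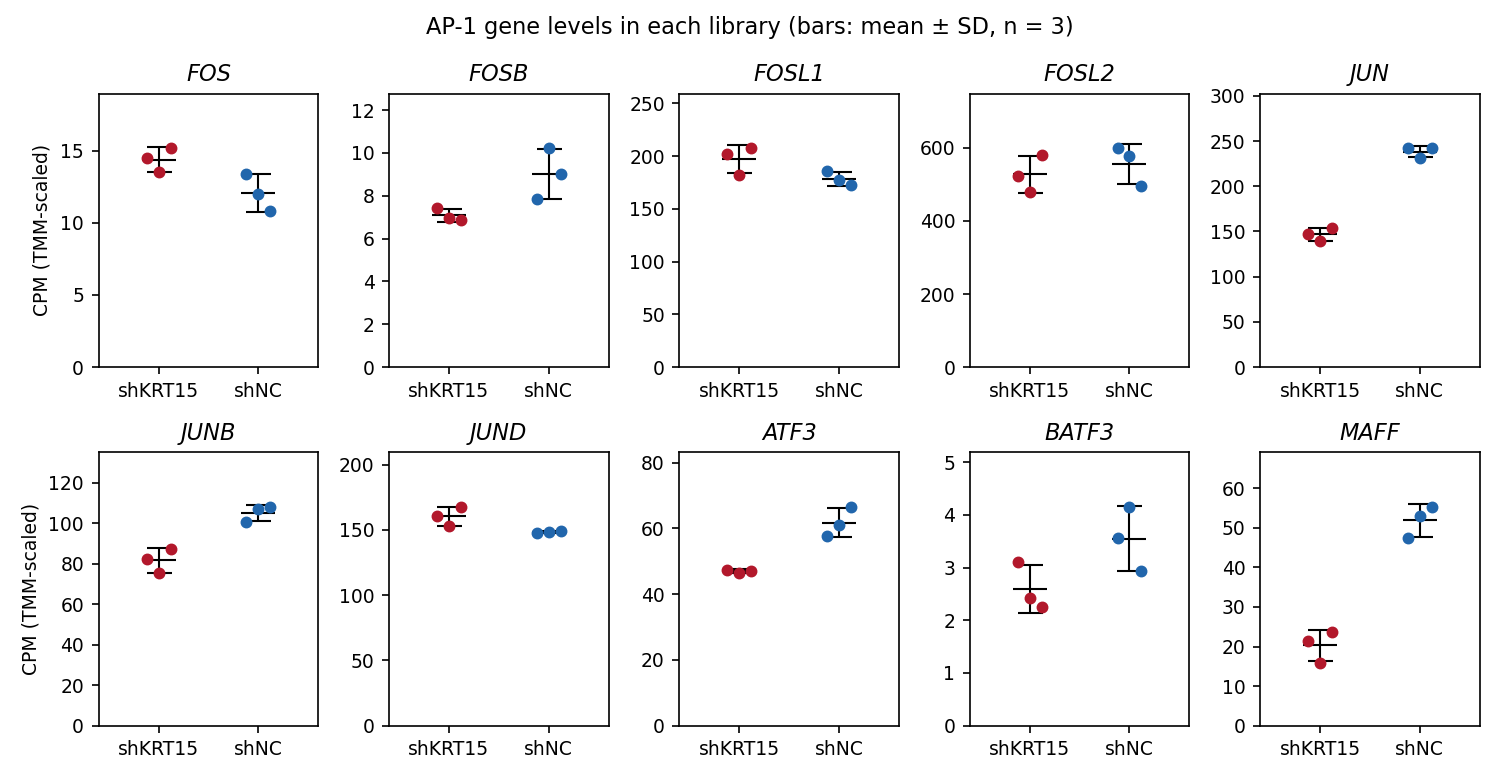
Level of each AP-1 gene (CPM scaled with TMM factors, vertical axes from 0) in the 3 shKRT15 and 3 shNC libraries, with mean and SD. JUN, JUNB, ATF3 and MAFF sit lower in every shKRT15 library than in any shNC library, and FOSL1, FOSL2 and BATF3 overlap.

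In the JUN subfamily, the central partners of the family, JUN and JUNB fell and JUND did not pass. JUN, the founding member, activates transcription strongly and is itself induced by stress kinases. It lies on the minus strand of chromosome 1 (58780791 to 58784047 in RefSeq, GRCh38) as a single exon. Its level was 147, 139 and 154 CPM in the shKRT15 libraries, against 242, 231 and 242 CPM in the shNC libraries. Every shKRT15 library was below every shNC library, and the gap between the groups exceeded the range within either. JUN fell by 38.4% (95% confidence interval 31.8 to 44.3%), a log2 fold change of −0.70 ± 0.07 (SE, n = 3 each; edgeR adjusted p = 3.03e-07). It ranked 579 by p-value among all tested genes, and 2209 of the genes called changed by more.

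JUNB, a weaker activator that can restrain JUN, lies on the plus strand of chromosome 19 (12791486 to 12793315). Its level was 82.4, 75.1 and 87.2 CPM in shKRT15, against 101, 107 and 108 CPM in shNC. The groups were apart, though shKRT15 replicate 2 stood below the other libraries of its group. JUNB fell by 22.4% (13.1 to 30.7%), with a log2 fold change of −0.37 ± 0.08 and edgeR adjusted p = 0.000928.

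JUND, the member known for steady expression in resting cells, lies on the minus strand of the same chromosome (18279694 to 18281622). It stood at 160, 153 and 168 CPM in shKRT15, against 147, 148 and 149 CPM in shNC. The 3 shNC libraries were nearly alike and all lay below the shKRT15 libraries, but the difference of 0.11 ± 0.07 on the log2 scale did not pass (95% confidence interval −0.031 to 0.26; edgeR adjusted p = 0.196). This direction depended on the correction: JUND was called higher with total-count scaling (0.17, adjusted p = 0.0337) and stood at −0.014 after correction for GC content and length (adjusted p = 0.855). Its transcript was the most GC-rich of the 10, at 69.7%.

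Shares within the JUN subfamily do not depend on how libraries are scaled, and for JUN and JUND they did not overlap between the groups. JUN supplied 37.7, 37.9 and 37.7% of the reads of JUN, JUNB and JUND together in shKRT15, against 49.4, 47.5 and 48.5% in shNC. JUND supplied 41.2, 41.7 and 41.0% in shKRT15, against 30.1, 30.5 and 29.9% in shNC. JUNB supplied 21.0 ± 0.466% of the reads in shKRT15 and 21.4 ± 0.756% in shNC (SD, n = 3 each), and its ranges overlapped. By reads JUND came to 1.09 ± 0.00611 reads per JUN read in shKRT15 and 0.623 ± 0.0174 in shNC. The 3 shares make up a whole, so the shifts of JUN and JUND are not separate results. By level, JUND did not pass. The shift was 11.1 percentage points up for JUND and −10.7 for JUN. Each had p = 0.1 in a two-sided exact permutation test, the smallest that 3 libraries against 3 allow, and 0.14 after Benjamini-Hochberg adjustment over the 7 shares computed. Per kilobase of exon, JUND was the largest of the 3 in both groups, with 49.96 ± 0.466% in shKRT15 and 38.9 ± 0.301% in shNC. On that scale JUN made up 24.1 ± 0.0937% in shKRT15 and 32.9 ± 0.836% in shNC. JUNB did not overlap between the groups per kilobase, with 25.3 to 26.4% in shKRT15 and 27.3 to 28.8% in shNC (exact permutation p = 0.1).

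**Figure D2:**
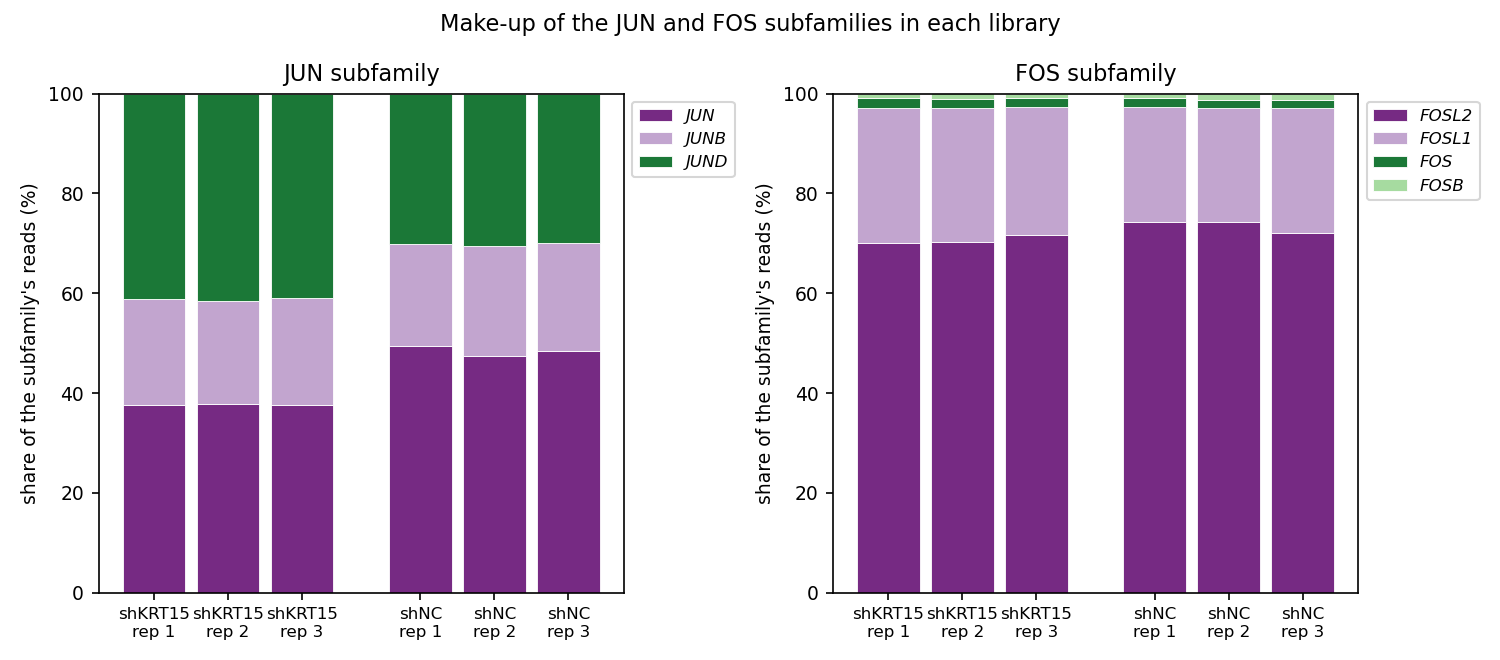
Share of each member in the reads of its subfamily (vertical axis, %) for the 3 shKRT15 libraries (left of each panel) and the 3 shNC libraries. JUND takes 41.0 to 41.7% of JUN subfamily reads in shKRT15 and 29.9 to 30.5% in shNC, while FOSL2, which has the greatest total exon length of its subfamily, holds the largest share of FOS subfamily reads in all 6 libraries.

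The FOS subfamily showed no called change. FOS, the classical immediate early member, lies on the plus strand of chromosome 14 (75278828 to 75282230). It stood at 14.5, 13.5 and 15.2 CPM in shKRT15, against 13.4, 12.01 and 10.8 CPM in shNC. The groups did not overlap, but the lowest shKRT15 library and the highest shNC library nearly touched. The difference of 0.25 ± 0.12 (95% confidence interval 0.0014 to 0.51) had edgeR adjusted p = 0.0945. FOSB, whose product resembles FOS, lies on chromosome 19 (45467996 to 45475179) and stood at 7.42, 6.96 and 6.85 CPM in shKRT15, against 7.87, 10.2 and 9.001 CPM in shNC. Its groups were also apart, with shNC replicate 1 close to the shKRT15 libraries, and the difference of −0.35 ± 0.14 (−0.65 to −0.048) had adjusted p = 0.0557. FOSB was called lower without shNC replicate 1 (−0.43, adjusted p = 0.0338) and after correction for GC content and length (−0.51, adjusted p = 0.00487).

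FOSL1 and FOSL2 encode FOS-like proteins without the strong activation domain of FOS, and FOSL1 is well known in invasive carcinoma cells. FOSL1 lies on the minus strand of chromosome 11 (65892049 to 65900545). It stood at 202, 182 and 207 CPM in shKRT15, against 186, 178 and 173 CPM in shNC. The ranges overlapped through shKRT15 replicate 2, and the difference of 0.14 ± 0.07 (−0.0074 to 0.29) had adjusted p = 0.114. Without that library FOSL1 was called higher (0.20, adjusted p = 0.0264), as it was with total-count scaling (0.20, adjusted p = 0.0231). FOSL2 lies on the plus strand of chromosome 2 (28392858 to 28417317) and stood at 523, 478 and 580 CPM in shKRT15, against 599, 576 and 495 CPM in shNC. Both groups spread widely and overlapped, and the difference of −0.08 ± 0.09 (−0.26 to 0.10) had adjusted p = 0.482. FOSL2 was called lower after correction for GC content and length (−0.25, adjusted p = 0.000743).

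Within the FOS subfamily, FOSL1 supplied 27.1, 26.8 and 25.6% of reads in shKRT15, against 23.0, 22.9 and 25.1% in shNC. FOSL2 supplied 70.0, 70.2 and 71.7% in shKRT15, against 74.3, 74.3 and 72.0% in shNC. The groups were apart for both shares by a narrow margin, set by shNC replicate 3 (exact permutation p = 0.1 each, 0.14 adjusted over the 7 shares). FOS made up 1.93 ± 0.0536% in shKRT15 and 1.59 ± 0.0590% in shNC, and FOSB 0.954 ± 0.0943% in shKRT15 and 1.20 ± 0.194% in shNC (SD, n = 3 each). Per kilobase FOSL1 was the larger part in all 6 libraries, with 55.1 to 56.9% in shKRT15 and 51.5 to 54.6% in shNC, while FOSL2 made up 39.9 to 41.7% in shKRT15 and 42.4 to 45.3% in shNC. Of all 7 shares in both subfamilies, the groups were apart for 5 by reads and for 7 per kilobase. Shares within a subfamily make up a whole, so these are not separate results. No background for shares was computed, and by level the groups did not overlap for 54% of all tested genes.

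Of the bZIP partners ATF3 and BATF3, ATF3 fell and BATF3 did not pass. ATF3, a stress-induced gene whose product represses as a homodimer and can activate with JUN, lies on the plus strand of chromosome 1 (212565407 to 212620777). Its level was 47.5, 46.3 and 47.1 CPM in shKRT15, against 57.8, 61.0 and 66.6 CPM in shNC. The shKRT15 libraries were nearly alike and all lower than the more spread shNC libraries. ATF3 fell by 24.0% (14.3 to 32.6%), with a log2 fold change of −0.40 ± 0.08 and edgeR adjusted p = 0.000819. BATF3, which pairs with JUN proteins and is known from dendritic cell development, lies on the same chromosome (minus strand, 212686417 to 212699840). It had only 91 to 148 reads per library, where counting alone gives an error of up to 10.5%. Its level was 3.10, 2.42 and 2.25 CPM in shKRT15, against 3.56, 4.15 and 2.93 CPM in shNC. The ranges overlapped, and the difference of −0.45 ± 0.23 (−0.93 to 0.025) had adjusted p = 0.115.

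MAFF had the largest fold change of the 10. It encodes a small MAF protein, which binds DNA through its bZIP but lacks an activation domain and pairs with CNC and BACH proteins as well as FOS proteins. MAFF lies on the plus strand of chromosome 22 (38201994 to 38216511). Its level was 21.4, 15.9 and 23.6 CPM in shKRT15, against 47.4, 53.0 and 55.3 CPM in shNC. The highest shKRT15 library was well below the lowest shNC library. MAFF fell by 60.9% (53.1 to 67.4%), with a log2 fold change of −1.35 ± 0.12 and edgeR adjusted p = 2.21e-07, and 782 of the genes called changed by more. The other small MAF genes were lower as well: MAFG fell by 0.83 ± 0.07 on the log2 scale (74.0 ± 3.35 CPM in shKRT15 and 131 ± 2.07 CPM in shNC, adjusted p = 5.66e-08) and MAFK fell by 0.69 ± 0.09 (27.4 ± 1.88 CPM in shKRT15 and 44.1 ± 0.383 CPM in shNC, adjusted p = 7.24e-06; n = 3 each).

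By Pearson correlation of log2 CPM over the 6 libraries, the tested genes most like MAFF were AEN (r = 0.9985), BMP1 (r = 0.9977) and OAF (r = 0.9975). The 6 points share the split between the hairpins, which sets most of such a correlation, and 55 genes had r over 0.99 with MAFF. AEN stood at 91.2, 84.96 and 92.2 CPM in shKRT15, against 110 to 113 CPM in shNC, a narrower gap than that of MAFF.

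**Figure D3:**
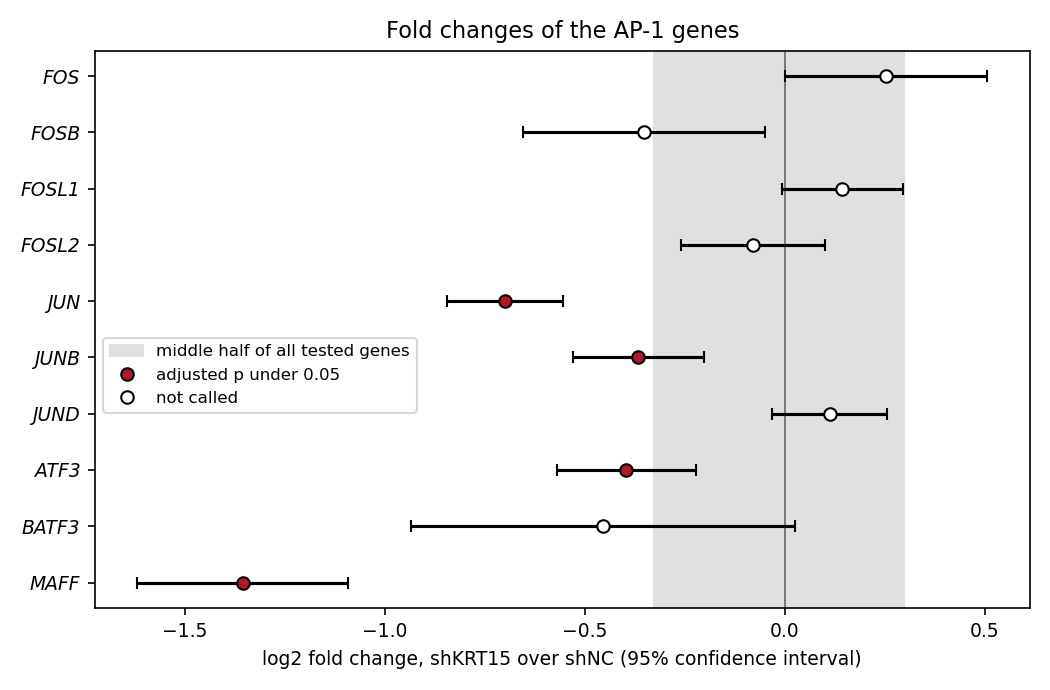
Log2 fold change of each member, shKRT15 over shNC (horizontal axis), with its 95% confidence interval and, in grey, the central range of all tested genes. MAFF (−1.35) and JUN (−0.70) lie farthest out, and the intervals of FOSL1, FOSL2, JUND and BATF3 include 0.

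Levels of different members were compared per kilobase of merged exon (CPM per kb), since longer transcripts collect more reads. In shKRT15 the order was FOSL1 (107 CPM per kb), JUND (86.1), FOSL2 (77.6), JUNB (44.8), JUN (41.5), ATF3 (18.5), MAFF (7.37), FOS (4.89), BATF3 (2.64) and FOSB (1.27), all in CPM per kb. In shNC it was FOSL1 (97.0 CPM per kb), FOSL2 (81.9), JUND (79.7), JUN (67.3), JUNB (57.8), ATF3 (24.4), MAFF (18.85), FOS (4.10), BATF3 (3.62) and FOSB (1.63). Neighbours with overlapping ranges were JUND and FOSL2 and also JUNB and JUN in shKRT15, and FOSL2 and JUND and also FOS and BATF3 in shNC. JUN was above JUNB in shNC without overlap, and in shKRT15 they could not be ordered. The low position of FOS depends on the length used: per kilobase of the median transcript, FOS (10.7 CPM per kb) stood above MAFF (8.58 CPM per kb) in shKRT15, while in shNC the order was kept.

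Summed per kilobase, the JUN subfamily reached 173, 163 and 182 CPM per kb in shKRT15, against 203, 204 and 208 CPM per kb in shNC. The FOS subfamily reached 193, 175 and 204 CPM per kb in shKRT15, against 195, 187 and 172 CPM per kb in shNC, with overlapping ranges. The FOS to JUN ratio of these sums was 1.12, 1.08 and 1.13 in shKRT15, against 0.961, 0.920 and 0.827 in shNC (exact permutation p = 0.1). Which subfamily was the larger in shNC depends on the length used, here that of merged exons. Per kilobase of the median transcript, FOSL1 stood at 136 and FOSL2 at 88.8 CPM per kb in shNC. Per kilobase of merged exon they stood at 97.0 and 81.9 CPM per kb. The values of JUN, JUNB and JUND were the same on both lengths. Together the 10 genes took 0.116 to 0.129% of all reads in shKRT15 and 0.128 to 0.138% in shNC.

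Related genes are given from 6 lists written with earlier results of these data known, each read against the 22.1% of tested genes called higher and 23% called lower. Among 33 other bZIP genes, 8 rose and 10 fell, at a median log2 fold change of −0.035. Genes for CNC and BACH partners of the small MAF proteins went both ways: the repressor BACH1 fell by 0.97 ± 0.11 (adjusted p = 2.31e-06), NFE2L2, which encodes NRF2, fell by 0.61 ± 0.07 (adjusted p = 3.63e-06), and NFE2, the erythroid partner, rose by 3.43 ± 0.38 at a low level (2.95 ± 0.569 CPM in shKRT15 and 0.270 ± 0.116 CPM in shNC, adjusted p = 1.32e-06). NFE2 was the only such partner in the list that rose. NFE2L3 fell by 0.19 ± 0.07 (adjusted p = 0.0344), and NFE2L1 (adjusted p = 0.698) and BACH2 (adjusted p = 0.214) did not pass. The clock-output factors DBP (1.12 ± 0.18), TEF (0.79 ± 0.12) and HLF (2.14 ± 0.38) rose, and NFIL3, which opposes them at the same sites, fell by 0.58 ± 0.08 (adjusted p = 1.63e-05). The count of bZIP genes called lower was 6 without shKRT15 replicate 1, where the count over all genes also went from 3295 to 2647.

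Upstream of AP-1, the kinase list held 26 tested genes, of which 7 rose and 6 fell, at a median of 0.019. MAP3K1, which feeds the JNK pathway, rose by 1.21 ± 0.10 (62.9 ± 2.98 CPM in shKRT15 and 27.1 ± 3.59 CPM in shNC, adjusted p = 3.13e-08). MAP2K6, an activator of p38, rose by 1.95 ± 0.16 (10.4 ± 1.23 CPM in shKRT15 and 2.68 ± 0.101 CPM in shNC, adjusted p = 3.46e-08), while MAP2K3, another activator of p38, fell by 0.54 ± 0.08 (adjusted p = 4.23e-05). RPS6KA1, an ERK-activated kinase, rose by 0.63 ± 0.08 and MAPK14, which encodes p38 alpha, by 0.31 ± 0.07 (adjusted p = 3.25e-06 and 0.00162). MAPK8, which encodes the JUN kinase JNK1, fell by 0.34 ± 0.08 (adjusted p = 0.00252), a call lost after correction for GC content and length (−0.083, adjusted p = 0.333).

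Of 9 genes for serum response factor (SRF), its cofactors and the related MEF2 factors, which are known regulators of FOS or JUN transcription, 2 rose and 2 fell, at a median of 0.075. ELK1 rose by 0.36 ± 0.09 and MRTFB by 0.72 ± 0.12 (adjusted p = 0.00239 and 0.000125). ELK4, an SRF cofactor gene like the pair that rose, fell by 0.46 ± 0.10 and MEF2D, 1 of 3 MEF2 genes in the list, fell by 0.29 ± 0.09 (adjusted p = 0.00154 and 0.0127). MEF2D was not called without shKRT15 replicate 1 or 2 or shNC replicate 1 or 2 (adjusted p = 0.0526 to 0.0883). SRF stood at −0.12 ± 0.08 (adjusted p = 0.239) and was called lower after correction for GC content and length (−0.27, adjusted p = 0.00147), a correction that also raised the count called higher to 4.

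Of 19 other immediate early genes tested, 11 fell and 2 rose, at a median of −0.52. IER3 fell by 1.30 ± 0.08 (220 ± 9.44 CPM in shKRT15 and 541 ± 50.5 CPM in shNC, adjusted p = 6.31e-10), CCN1, a secreted matrix protein gene, fell by 0.87 ± 0.07, KLF6 fell by 0.83 ± 0.07 and the kinase gene SGK1 fell by 1.86 ± 0.17 (adjusted p = 1.63e-08, 4.18e-08 and 9.41e-08). KLF10 (0.45 ± 0.09, adjusted p = 0.000400) and KLF4 (0.22 ± 0.07, adjusted p = 0.0151) rose. KLF4 lost its call without shNC replicate 2 (adjusted p = 0.0533) and after correction for GC content and length (adjusted p = 0.103). EGR1, often induced together with FOS, stood at 0.26 ± 0.11 (adjusted p = 0.0773) and was called higher without shKRT15 replicate 2 (0.40, adjusted p = 0.00365), under the replicate block (0.24, adjusted p = 0.0406), with total-count scaling (adjusted p = 0.0349) and when low counts were not filtered out (adjusted p = 0.0254).

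Of 19 genes of AP-1 turnover and feedback, 11 fell and 2 rose, at a median of −0.21. The MAP kinase phosphatase genes DUSP5 (−1.36 ± 0.08; 54.7 ± 3.98 CPM in shKRT15 and 140 ± 4.23 CPM in shNC), DUSP6 (−1.01 ± 0.08) and DUSP1 (−0.85 ± 0.07) fell (adjusted p = 3.45e-10, 1.37e-08 and 3.04e-08). FBXW7, a ubiquitin ligase receptor for JUN, fell by 0.69 ± 0.11 (adjusted p = 4.18e-05). ZFP36L2, whose product binds AU-rich mRNA, rose by 1.20 ± 0.08 (131 ± 7.68 CPM in shKRT15 and 57.0 ± 5.602 CPM in shNC, adjusted p = 4.84e-09). The related ZFP36 (−0.75 ± 0.10, adjusted p = 1.51e-05) and ZFP36L1 (−0.47 ± 0.07, adjusted p = 2.63e-05) fell. DDB1 rose by 0.29 ± 0.08 (adjusted p = 0.00501). Of the other ubiquitin ligase genes listed with it, COP1 (−0.21 ± 0.07, adjusted p = 0.0318) and CUL4A (−0.19 ± 0.07, adjusted p = 0.0430) fell. DET1 did not pass (adjusted p = 0.461).

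Of 23 tested genes that textbooks list as AP-1 targets, 20 fell and none rose, at a median log2 fold change of −1.81 against −0.0013 for all tested genes. None was higher at an unadjusted p under 0.05 either, and DESeq2 and limma-voom each called 0 higher and 20 lower. CXCL8, a neutrophil chemokine, stood at 972, 1066 and 973 CPM in shKRT15, against 10826, 10979 and 10680 CPM in shNC (−3.43 ± 0.08, adjusted p = 1.62e-15). IL6 averaged 407 ± 9.24 CPM in shKRT15 and 2542 ± 88.5 CPM in shNC (adjusted p = 1.57e-14). The levels of IL11 were 13.3 ± 0.669 CPM in shKRT15 and 142 ± 9.69 CPM in shNC, and those of IL1B were 0.674 ± 0.0763 CPM in shKRT15 and 33.2 ± 0.616 CPM in shNC (SD, n = 3; edgeR adjusted p = 8.66e-15 for each). The collagenase gene MMP1 fell by 3.07 ± 0.11 and the prostaglandin synthase gene PTGS2 fell by 2.66 ± 0.09 (adjusted p = 8.69e-13 and 7.33e-13). CD44 (−0.15 ± 0.07, adjusted p = 0.0984), HMGA1 (0.03 ± 0.07, adjusted p = 0.746) and TGFB1 (0.06 ± 0.08, adjusted p = 0.56) did not pass, and HMGA1 (−0.0519) and TGFB1 (−0.0663) turned negative after correction for GC content and length. CD44 was called lower after that correction (adjusted p = 0.0230) and without shKRT15 replicate 3 (0.0480) or shNC replicate 3 (0.0271). Several of these targets, among them CXCL8, IL6 and IL1B, are textbook NF-kB targets too, and the count does not tell the factors apart. Because the list was written with earlier results of these data known, its count and median are a description only.

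**Figure D4:**
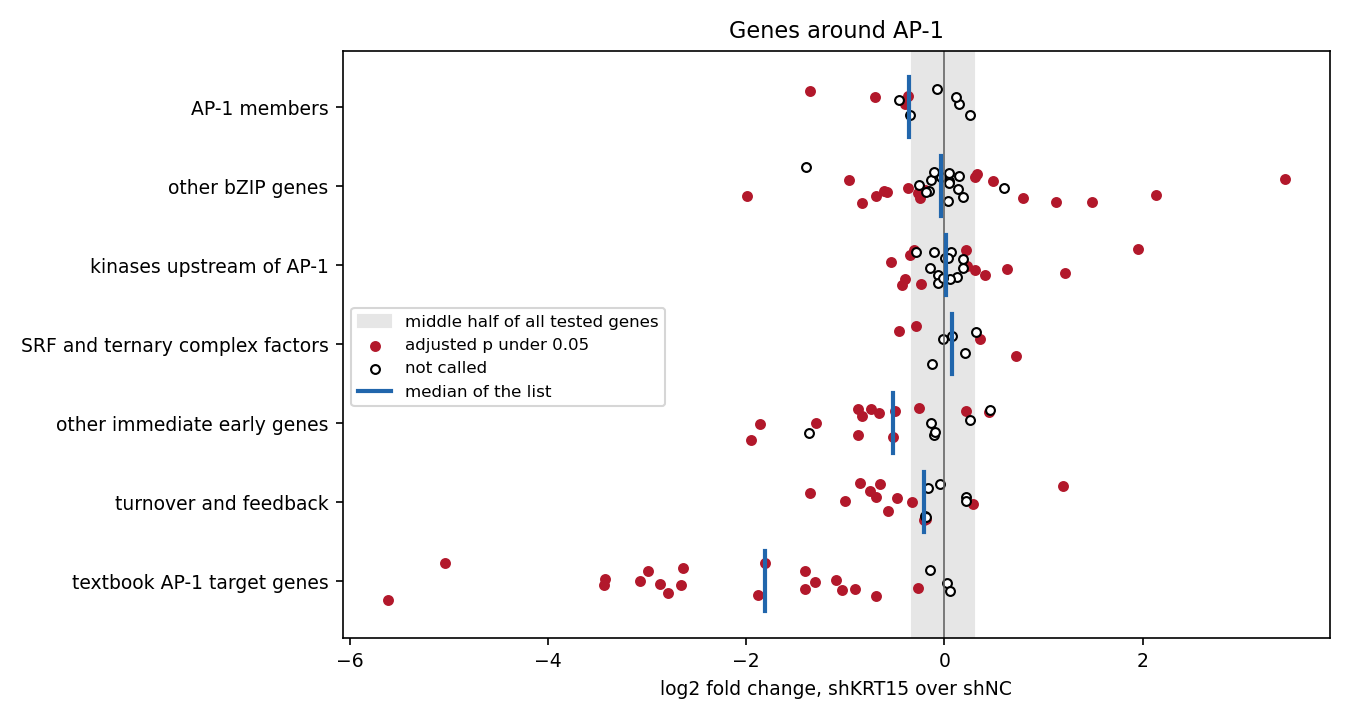
Log2 fold change, shKRT15 over shNC (horizontal axis), of every tested gene in the AP-1 family and the 6 lists around it, with the median of each list. The AP-1 target list has its median at −1.81, and the medians of the kinase list (0.019) and the SRF list (0.075) lie near 0. All 6 lists were written with earlier results of these data known.

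**Figure D5:**
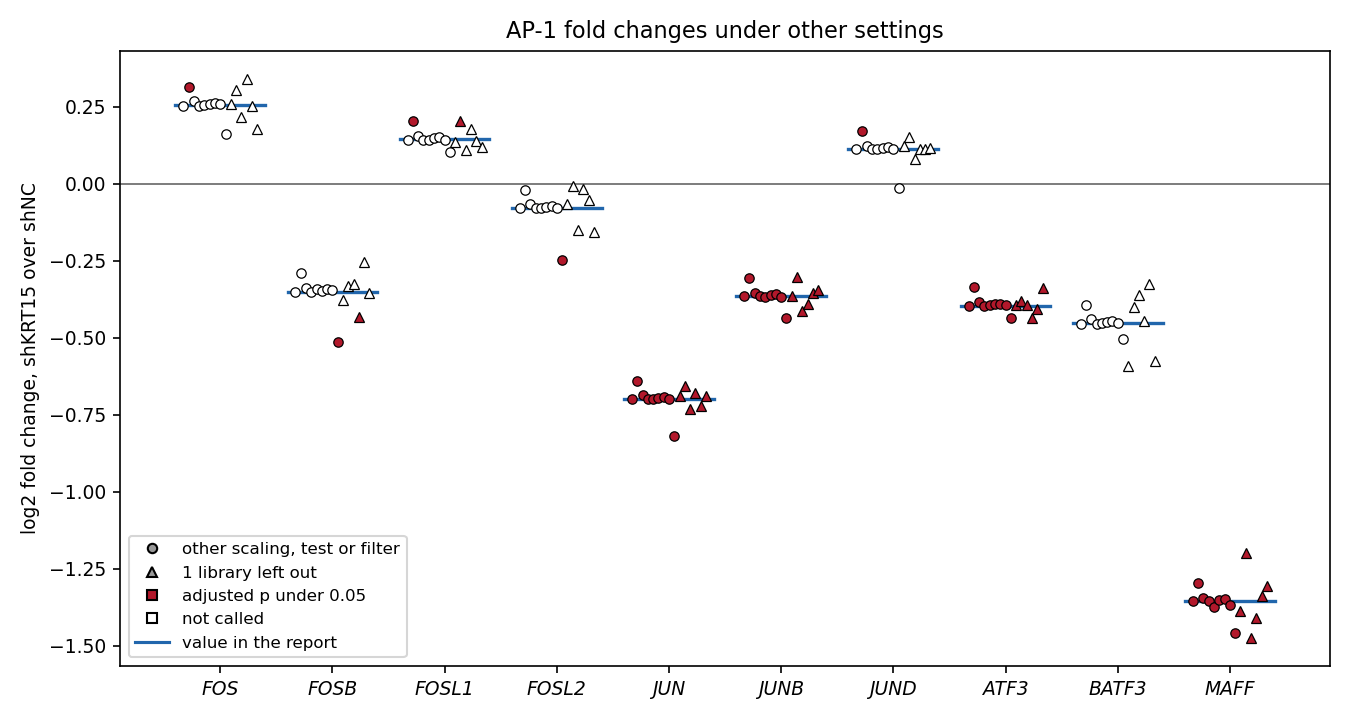
Log2 fold change of each member (vertical axis) under every other scaling, test or filter and with each library left out, filled where the adjusted p was under 0.05. JUN, JUNB, ATF3 and MAFF stay below 0 and called in all 15 settings, and the calls of FOS, FOSB, FOSL1, FOSL2 and JUND appear in 1 or 2 settings each.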

How the data were processed

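The table the authors deposited holds raw counts of reads for each gene in 6 libraries, without normalization. RNA came from TRIzol extracts and libraries from purified mRNA, per the labels' protocols. GRCh38 is the build in the submitters' processing notes, and which aligner, counting tool, annotation or strand setting was used is not given in the sources used here. Antisense reads cannot be separated. In the basic annotation set of GENCODE 29, no exon of another gene overlaps the exons of the 10 members.

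Libraries were grouped by title. Counts were tested with edgeR 4.0.16 (quasi-likelihood, robust, TMM scaling, R 4.3.3) after filterByExpr (minimum count 10, minimum total 15), and p-values were adjusted by Benjamini-Hochberg over 14356 genes and called under 0.05. Standard errors were derived from the F statistic, and intervals are 95%. CPM are TMM-scaled. The fit was tested on simulated data. Lengths and GC content came from GENCODE 29 (available for 95.2% of tested genes), and promoters and gene positions from RefSeq on GRCh38.p14. Shares of subfamily reads were compared by exact permutation tests. Each library was left out in turn, and the alternatives were DESeq2 1.42.0, limma-voom (limma 3.58.1), other scalings and filters, a replicate block and removal of GC content and length trends.

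The members and lists were chosen with earlier results of these data known. Genes were named by rule: all members, KRT15, the 4 smallest p-values of each list and the 3 genes most like the called member with the largest change in each direction. Of the genes so named, 1 is not reported here. MAFK, NFE2L1, NFE2L2, NFE2L3, BACH2, NFIL3, DBP, TEF, HLF, MAPK8, MAPK14, SRF, KLF4, KLF10, ZFP36, ZFP36L1, DDB1, COP1, CUL4A, DET1, FBXW7, MMP1, PTGS2, CD44, HMGA1, TGFB1 and EGR1 were added after their values were seen, and so was the search for motifs in promoters.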

Additional observations from a re-analysis of the deposited data

How the results depend on the processing

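The falls of JUN, JUNB, ATF3 and MAFF kept their direction and stayed past the threshold in all 15 settings, with log2 fold changes of −0.82 to −0.64 for JUN, −0.44 to −0.30 for JUNB, −0.44 to −0.34 for ATF3 and −1.47 to −1.20 for MAFF. The count of members called higher was 0 to 1 and that called lower 4 to 5 with 1 library left out. With total-count scaling 3 members were called higher, beside 26.1% of all tested genes, and that scaling moved the median of all genes by 0.06. After correction for GC content and length, 6 members were called lower, beside 22.8% of all tested genes, and JUND turned to −0.0136. The cause was not tested. Over all genes, 2547 to 3295 were called higher and 2647 to 3452 lower with 1 library left out. No label says that the replicate number pairs the cultures. Deviations of same-numbered libraries correlated at −0.00868 to 0.0437, and those of differently numbered libraries at −0.0454 to 0.0311. Such values cannot settle whether same-numbered cultures were handled together. A replicate block left the members' counts at 0 higher and 4 lower, and 3305 genes were called higher and 3428 lower over all genes. The differences in subfamily shares kept their direction per kilobase and with any 1 library left out. Each gene is divided by the same length in both groups, so the per-kilobase direction of the JUN and JUND shares was fixed in advance. HMGA1 and TGFB1 stood at −0.0519 and −0.0663 after correction for GC content and length.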
